A study of Mus musculus with 6 samples.

Results

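Pou5f1, Sox2, Klf4 and Myc are the 4 transcription factor genes whose forced expression reprograms fibroblasts toward pluripotency. They were chosen by symbol, and all 4 were found among the 20325 genes listed for each library. All 4 passed the filter on low counts, which left 11048 genes to test. Messenger RNA was sequenced from 2 mouse lines, pre2-2 and pre3, which the series text calls pre-iPSCs, that is, partially reprogrammed cells. Both lines carried the OG2 transgene, a GFP reporter under the Pou5f1 promoter, in a mixed strain background of 129SVJ (1/2), C57B6 (3/8) and CBA (1/8), and both were at passage 10. Within each line 1 library came from untransfected cells, 1 from cells given a control siRNA and 1 from cells given an siRNA against Tet1 (siTet1), so each treatment had 2 libraries. All 6 cultures received LIF and vitamin C at 50 µg/ml.

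The labels disagree on several points. The series text puts the change to vitamin C medium 16 h after transfection and RNA extraction 32 h after that, whereas the sample descriptions give 48 h between transfection and RNA and 36 h of vitamin C. A treatment field reads Tet siRNA where the title names siTet1, which was used here. The source is labelled as embryonic fibroblasts although the series text names pre-iPSCs. The sources used here do not say which factors or vectors made the lines, and the files give 1 value per gene. Reads from the cell's own copy and from an introduced copy of a factor therefore cannot be told apart in any value below. Nor do the labels say whether the libraries of a line were grown as separate cultures. Each line and treatment had 1 library, so p-values rest on the spread left between these libraries after the model is fitted. That spread may be technical, and it holds no replicates of a line and treatment.

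Pou5f1 (also called Oct4) binds DNA through a POU domain and pairs with the HMG-box protein Sox2 on composite sites in the enhancers of pluripotency genes. Klf4 is a zinc finger protein that binds GC-rich sites, and Myc is a basic helix-loop-helix factor that binds E-boxes with its partner Max and drives genes of growth and ribosome production. In retroviral reprogramming the introduced copies are silenced when cells reach full pluripotency and the cell's own Pou5f1 and Sox2 take over, while partially reprogrammed lines can keep the introduced copies on.

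The bases just before the start sites of the cell's own genes are shown, because this is sequence that the endogenous copies carry upstream of their transcripts. Windows of 250 bases, taken from RefSeq on GRCm38.p6, were found for Pou5f1, Sox2 and Klf4, 3 of the 4 genes. They were read on both strands for the octamer core ATGCAAA, the nuclear receptor motif AGGTCA, the GC box GGGCGG, the E-box CACGTG and the Sox motif ACAAAG, and each match is in capitals. The Pou5f1 window is chr17:35505782-35506031 on the plus strand, the Sox2 window chr3:34649745-34649994 on the plus strand and the Klf4 window chr4:55532476-55532725 on the minus strand, each written 5′ to 3′ along its gene.
Pou5f1: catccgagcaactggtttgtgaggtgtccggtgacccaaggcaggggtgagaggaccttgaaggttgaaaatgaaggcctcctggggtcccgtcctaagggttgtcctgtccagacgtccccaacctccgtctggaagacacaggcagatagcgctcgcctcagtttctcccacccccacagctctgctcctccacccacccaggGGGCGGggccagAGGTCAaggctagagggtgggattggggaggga
Sox2: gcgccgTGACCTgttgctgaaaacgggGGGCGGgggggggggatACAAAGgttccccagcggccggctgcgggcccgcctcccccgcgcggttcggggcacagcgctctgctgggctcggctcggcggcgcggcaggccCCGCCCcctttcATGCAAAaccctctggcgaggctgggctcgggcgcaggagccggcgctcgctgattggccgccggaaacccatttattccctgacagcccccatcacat
Klf4: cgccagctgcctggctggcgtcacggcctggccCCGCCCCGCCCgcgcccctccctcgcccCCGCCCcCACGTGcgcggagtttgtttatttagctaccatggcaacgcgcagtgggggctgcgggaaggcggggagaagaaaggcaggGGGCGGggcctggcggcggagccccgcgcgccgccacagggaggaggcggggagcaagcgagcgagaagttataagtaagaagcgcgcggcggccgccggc
The Pou5f1 window held 1 GC box, beginning 45 bases before the start, and 1 nuclear receptor motif, beginning 33 bases before it. The window of another Pou5f1 start in RefSeq, chr17:35508557-35508806, held none of the motifs. The Sox2 window held 1 octamer core at 99 bases, 1 Sox motif at 206, 2 GC boxes at 223 and 111, and 1 nuclear receptor motif at 244 bases before the start. The Klf4 window held 4 GC boxes, at 217, 212, 189 and 101 bases before the start, of which the first and its neighbour overlap each other, and 1 E-box at 182. No match of one motif overlapped a match of another. Of 32851 windows of the same length, 32.7% held the GC box, 16.5% the Sox motif, 14.0% the nuclear receptor motif, 6.0% the E-box and 4.1% the octamer core. CG dinucleotides numbered 8 in the Pou5f1 window, 27 in that of Sox2 and 32 in that of Klf4, beside a median of 6 over all windows. These matches describe letters in a window and were not tested as binding sites.

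Library totals ranged from 1868640 to 2582803 expected counts, with 13506 to 14128 genes at a count above 0. In CPM, that is counts scaled to a fixed library total, 3 counts equalled 1.16 to 1.61. Such a floor, and the counting intervals given below, hold counting error alone. The targeted gene Tet1 stood at 250.2 CPM in untransfected, 246 CPM in control siRNA and 154.1 CPM in siTet1 cells of pre2-2, and at 204.7, 250.5 and 158.5 CPM in pre3. Tet1 was lower by siTet1 than by control siRNA (log2 difference -0.67, SE 0.1284, adjusted p = 0.0043 by edgeR's quasi-likelihood test with Benjamini-Hochberg adjustment over all genes). Adjusted p-values below come from that test unless another is named, and those under 0.05 were called.

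All 4 factor genes were abundant in all 6 libraries, and Pou5f1 was the most abundant of them by TPM. Levels are given as TPM, a gene's estimated share of all transcripts scaled to a fixed total. TPM divides by the length of the listed transcripts. One gene can thus be set beside another only as far as reads come from such full-length transcripts. In bulk RNA, fewer cells expressing a gene and less of its RNA per cell cannot be told apart. Pou5f1 stood at 1826 TPM in untransfected, 1630 TPM in control siRNA and 1808 TPM in siTet1 cells of pre2-2, and at 9358, 8677 and 9097 TPM in the same order in pre3. Every pre3 library was far above every pre2-2 library. Among all listed genes Pou5f1 ranked 82 to 95 by TPM in pre2-2, and in all 3 pre3 libraries it ranked 2, behind Eef1a1, the gene of a translation elongation factor.

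Sox2, the DNA-binding partner of Pou5f1, was the least abundant of the 4 in every library. Its levels were 410 TPM in untransfected, 355.5 TPM in control siRNA and 401.2 TPM in siTet1 cells of pre2-2, and 306.9, 312.8 and 355.2 TPM in pre3. The siTet1 library of pre3 lay just under the control siRNA library of pre2-2, so the lines came close without overlapping in TPM, and in CPM they did overlap. Sox2 ranked 346 to 453 over the 6 libraries.

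Klf4, the zinc finger factor, stood at 1094 TPM in untransfected, 1018 TPM in control siRNA and 1191 TPM in siTet1 cells of pre2-2, and at 1207, 1180 and 1255 TPM in pre3. Here the lines overlapped, since the siTet1 library of pre2-2 lay above the control siRNA library of pre3, though in CPM every pre3 library was the higher. Myc, the E-box factor, stood at 838.8, 756.1 and 867.7 TPM in pre2-2 and at 1479, 1420 and 1456 TPM in pre3. Its lines were wholly separate, with each pre3 library above each pre2-2 library. Klf4 ranked 115 to 130 and Myc 104 to 169 among all listed genes.

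**Figure D1:**
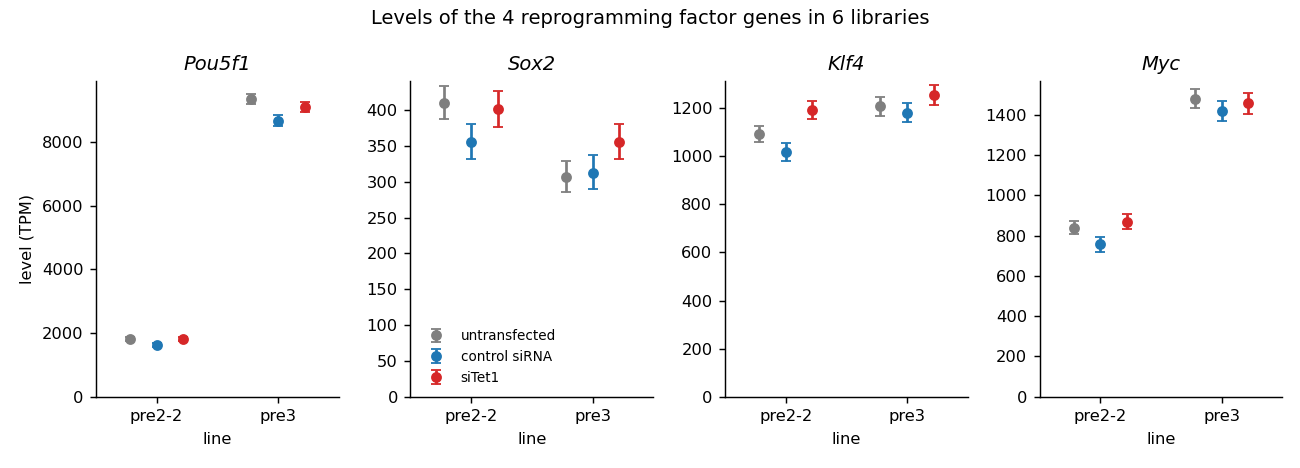
Level in TPM (linear axes from 0) of each of the 4 genes by line, 1 point per library, coloured by treatment, with bars for the 95% counting interval. Pou5f1 runs from 1630 to 1826 TPM in pre2-2 and from 8677 to 9358 TPM in pre3, and in pre2-2 the control siRNA library is the lowest of the 3 for every gene.

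Within a line the levels of a factor varied little. The highest library of a line exceeded the lowest by 1.04 to 1.17 times in TPM, and the counting error of a single value was 0.88 to 3.74%. In pre2-2 the control siRNA library was the lowest of the 3 for all 4 genes, and in pre3 for Pou5f1, Klf4 and Myc. The plot of levels by line shows this as a dip at the middle point.

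The order of the 4 levels in TPM differed between the lines in 1 place. Both had Pou5f1 first and Sox2 last, but Klf4 stood above Myc in pre2-2 and Myc above Klf4 in pre3. The Myc to Klf4 ratio of TPM was 0.7669, 0.7431 and 0.7285 in untransfected, control siRNA and siTet1 cells of pre2-2, and 1.225, 1.203 and 1.16 in pre3. None of the 95% counting intervals of these 6 ratios reached 1, the nearest bounds being 0.8058 in pre2-2 and 1.106 in pre3, so these neighbours in the order differed beyond counting error in each library. Expected counts would give another order, because RSEM's effective lengths relative to Pou5f1 were 1.78 for Myc, 1.83 for Sox2 and 2.27 for Klf4. In untransfected pre2-2 cells, for example, Klf4 had 4220 expected counts and Pou5f1 3110. In expected counts Klf4 stood above Myc in both lines. In pre3 the values were 3772 and 3635 in untransfected, 3349 and 3170 in control siRNA and 3580 and 3267 in siTet1 cells. The change of order between the lines was thus seen in TPM and not in expected counts.

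The lines were then compared across treatments, which asks how the factors differed between the 2 pre-iPSC lines. Of all genes tested 3335 were called between pre3 and pre2-2, which is 30.2%, with 14.4% higher in pre3 and 15.8% lower. On log2(TPM + 1) values in limma 1023 were higher and 1774 lower. Pou5f1, Klf4 and Myc were called and Sox2 was not. With that many genes called, a call alone sets none apart, and the size is given for each.

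Pou5f1 rose most. Its mean was 1755 ± 108 TPM in pre2-2 and 9044 ± 344 TPM in pre3 (SD over the 3 libraries of a line, which differ in treatment). The fitted difference in CPM was 2.45 on the log2 scale (SE 0.0635), that is 5.45-fold (adjusted p = 6.69e-20). This was the smallest p of the 11048 genes, and the 51st largest increase. Over 13 alternative settings and left-out libraries the difference ranged from 2.37 to 2.46, and Pou5f1 was called in 13 of 13.

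Myc rose as well, by less. Its mean was 820.9 ± 57.9 TPM in pre2-2 and 1452 ± 29.7 TPM in pre3 (SD, 3 libraries each), and the fitted difference was 0.90 (SE 0.0724), that is 1.87-fold (adjusted p = 3.98e-10). It was called in 13 of 13 alternatives, between 0.82 and 0.94.

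Klf4 was called with a small difference, and that call depended on the setting. Its mean was 1101 ± 86.7 TPM in pre2-2 and 1214 ± 38 TPM in pre3 (SD, 3 libraries each), and the fitted difference was 0.22 (SE 0.0686), or 1.17-fold (adjusted p = 0.0146). The call ended with DESeq2 (0.22, adjusted p = 0.171) and with limma on log2(TPM + 1) (0.14, adjusted p = 0.159). It also ended without the control siRNA library of pre2-2 (0.19, adjusted p = 0.271), the siTet1 library of pre2-2 (0.26, adjusted p = 0.0501), the control siRNA library of pre3 (adjusted p = 0.263) or the siTet1 library of pre3 (adjusted p = 0.0677). Klf4 was called in 6 of 13 alternatives.

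Sox2 was not called. Its mean was 388.9 ± 29.3 TPM in pre2-2 and 325 ± 26.3 TPM in pre3 (SD, 3 libraries each), and the fitted difference was -0.18 (SE 0.0888, adjusted p = 0.128), or 0.882 of the pre2-2 level. In 13 alternatives it ranged from -0.26 to -0.10 and was called in 0. Thus Pou5f1, with the largest gain of the 4 in pre3, and its binding partner Sox2 had differences of opposite sign, that of Sox2 being within the spread of the test.

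**Figure D2:**
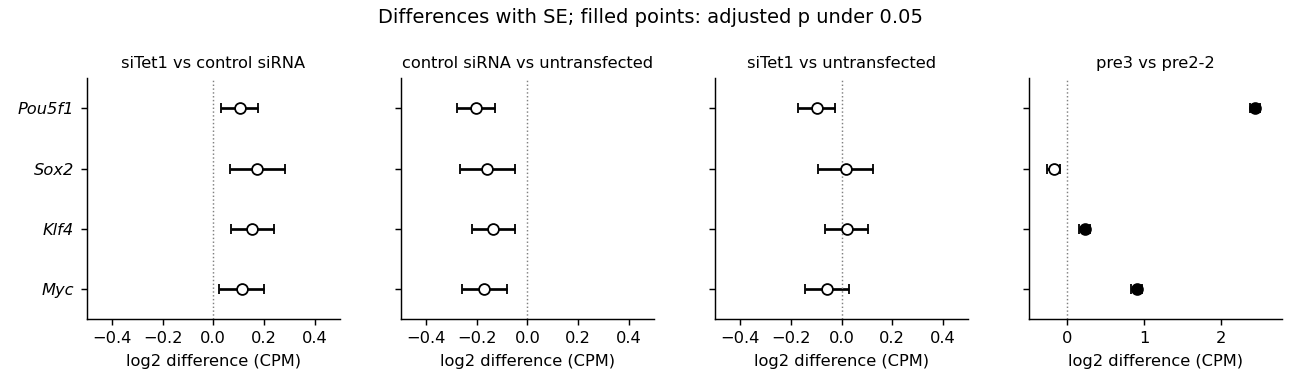
Log2 differences in CPM of the 4 genes in 4 comparisons, with SE bars from the fit over all 6 libraries; filled points have an adjusted p under 0.05, and the last panel has a wider axis. Pou5f1 at 2.45, Myc at 0.90 and Klf4 at 0.22 are filled for pre3 against pre2-2, and no point is filled for the siRNA comparisons.

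Fibroblast markers, the genes of the cells from which such lines are made, moved between the lines in the other direction. Of 15 listed fibroblast markers, all tested, 14 were lower in pre3 and 0 higher, beside 15.8% and 14.4% of all genes tested. The 14 include Snai2, under 10 counts in each pre3 library, which passed the filter only through pre2-2. Its call ended without either siTet1 library (-1.05) or the control siRNA library of pre2-2 (-1.48). That of Col3a1 (-0.40) ended without the control siRNA library of pre2-2 (-0.23) or of pre3 (-0.21). The median log2 difference of the markers was -1.45 beside 0.0025 over all genes tested. Their summed level was 3760, 6180 and 6750 TPM in untransfected, control siRNA and siTet1 cells of pre2-2 and 2530, 2740 and 2990 TPM in pre3, with no marker of the list at 0 in all libraries. In the same order Pou5f1 stood at 1826, 1630 and 1808 TPM in pre2-2 and at 9358, 8677 and 9097 TPM in pre3. The part of fibroblast-like cells in the differences between the lines was not tested.

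The ratios between the factors restate these levels within each library, where scaling cancels. Pou5f1 exceeded Sox2 by 4.455, 4.585 and 4.507 times in TPM in untransfected, control siRNA and siTet1 cells of pre2-2 and by 30.5, 27.74 and 25.61 times in pre3. The mean ratio was 4.52 ± 0.0655 in pre2-2 and 27.9 ± 2.45 in pre3 (SD, 3 libraries each), 6.17 times apart. The 2 ranges were far from touching. In pre3 the ratio was lowest in the siTet1 library, with a 95% counting interval of 23.85 to 27.53 beside 28.36 to 32.83 in the untransfected library.

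Of the other 5 ratios, those with Pou5f1 as the reference also differed widely. Klf4 was 0.627 ± 0.03 of Pou5f1 in pre2-2 and 0.134 ± 0.00472 in pre3, and Myc was 0.468 ± 0.0108 and 0.161 ± 0.00285 of it (TPM ratios, SD, 3 libraries each). The ratios that leave Pou5f1 out differed less. Klf4 exceeded Sox2 by 2.83 ± 0.152 times in pre2-2 and 3.75 ± 0.202 in pre3, Myc exceeded Sox2 by 2.11 ± 0.0597 and 4.49 ± 0.363 times, and Myc to Klf4 was 0.746 ± 0.0194 and 1.2 ± 0.0331. For each of the 6 ratios the libraries of the lines did not overlap, and the two-sided exact permutation p was 0.1, the smallest that 3 against 3 libraries allow (0.1 after Benjamini-Hochberg adjustment over the 6), so this design could not pass the threshold.

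As shares of their summed level, the 4 genes were split in the same way in the libraries of a line. Pou5f1 made up 43.8, 43.4 and 42.4% of the sum in untransfected, control siRNA and siTet1 cells of pre2-2 and 75.8, 74.9 and 74.8% in pre3. Klf4 made up 26.2 to 27.9% in pre2-2 and 9.78 to 10.3% in pre3. Myc made up 20.1 to 20.3% and 12.0 to 12.3%, and Sox2 9.4 to 9.83% and 2.48 to 2.92%. The plot of shares by library shows 3 nearly equal bars for each line.

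The sum itself was 3759 to 4268 TPM in pre2-2 and 11590 to 12350 TPM in pre3. Thus the 4 genes held 0.376 to 0.427% of all estimated transcripts in pre2-2 and 1.16 to 1.24% in pre3.

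**Figure D3:**
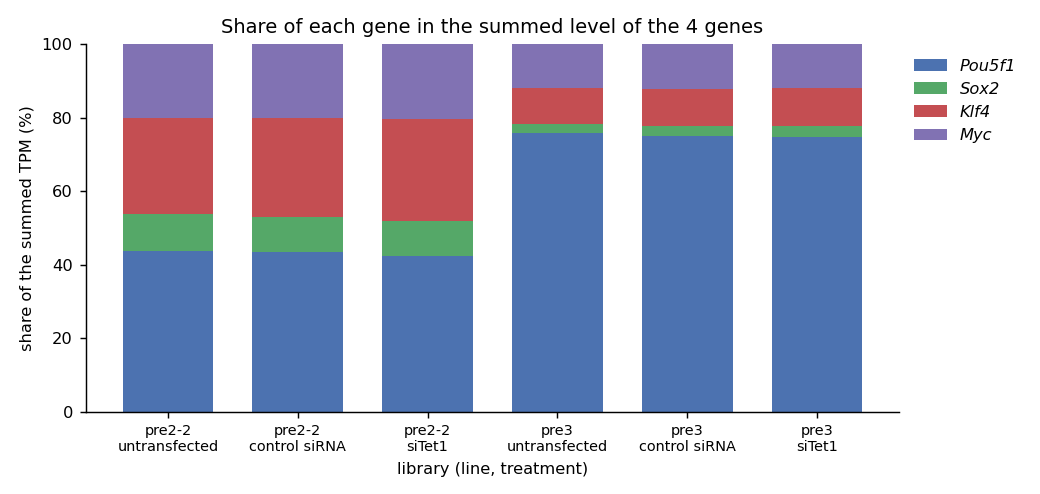
Stacked bars of the share (%) of Pou5f1, Sox2, Klf4 and Myc in their summed TPM, 1 bar per library. Pou5f1 fills 42.4 to 43.8% of the bar in pre2-2 and 74.8 to 75.8% in pre3, and Sox2 is the thinnest segment in every bar.

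The siRNA comparisons ask whether Tet1 knockdown or transfection moved the factors, and none of the 4 was called in any of them by edgeR, DESeq2 or limma. Only Pou5f1 in control siRNA against untransfected cells had an unadjusted p under 0.05 by edgeR. The comparisons share libraries: siTet1 and untransfected cells were each set against the same control siRNA libraries and against each other. Between siTet1 and control siRNA 175 genes were called, 1.58% of those tested, with 127 higher (1.15%) and 48 lower (0.434%). On log2(TPM + 0.1) values in limma the split was 18 higher and 3 lower.

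Pou5f1 was at 1146 CPM by siTet1 and 1042 CPM by control siRNA in pre2-2, and at 6092 and 5794 CPM in pre3. The difference was 0.10 (SE 0.0742, adjusted p = 0.671). Klf4 was at 1710 and 1474 CPM in pre2-2 and at 1904 and 1785 CPM in pre3, a difference of 0.15 (SE 0.0841, adjusted p = 0.528). All 4 genes had a higher value by siTet1 in both lines, none of them by more than the test's threshold.

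Sox2 was at 464.6 CPM by siTet1 and 415.5 CPM by control siRNA in pre2-2, and at 434.6 and 381.7 CPM in pre3, a difference of 0.17 (SE 0.1091, adjusted p = 0.615). Myc was at 980.3 and 861.8 CPM in pre2-2 and at 1738 and 1690 CPM in pre3, a difference of 0.11 (SE 0.0883, adjusted p = 0.719). Within pre2-2 the log2 differences were 0.14 for Pou5f1, 0.16 for Sox2, 0.22 for Klf4 and 0.19 for Myc, and within pre3 they were 0.07, 0.19, 0.09 and 0.04. A 95% counting interval contained 0 only for Myc in pre3 (-0.03 to 0.11), but such an interval holds no variation between cultures. Pou5f1 took the opposite sign when the untransfected libraries were pooled with the control siRNA libraries (-0.0007).

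Control siRNA was set against untransfected cells to see what transfection itself did. Here 164 genes were called, 1.48% of those tested, with 153 higher (1.38%) and 11 lower (0.0996%), and again none of the 4 factors was among them. Pou5f1 had the lowest unadjusted p of the 4, at 0.0113, with a difference of -0.20 (SE 0.0741, adjusted p = 0.278). The differences were -0.16 (SE 0.1088, adjusted p = 0.754) for Sox2, -0.13 (SE 0.084, adjusted p = 0.713) for Klf4 and -0.17 (SE 0.0881, adjusted p = 0.598) for Myc.

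All 4 values were below those of untransfected cells in both lines on the CPM scale. On the TPM scale Sox2 in pre3 was slightly above (0.03 on the log2 scale). Fibroblast markers were higher with control siRNA at the same time, 4 of 15 being called higher (Thy1, Col1a1, Col1a2 and Postn) with a list median of 0.72, beside 1.38% of all genes called higher. All 4 calls ended without the control siRNA library of pre2-2 (Thy1 0.48, Col1a1 0.57, Col1a2 0.41, and Postn with an adjusted p of 1.0), and those of Thy1 (0.42) and Postn (1.07) also without the untransfected library of pre2-2. The part of that shift in the lower factor values was not tested.

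Between siTet1 and untransfected cells 724 genes were called, 6.55% of those tested, with 544 higher (4.92%) and 180 lower (1.63%). On log2(TPM + 1) values in limma 173 were higher and 22 lower. The differences of the 4 factors were the smallest of the 3 siRNA comparisons: -0.10 (SE 0.074, adjusted p = 0.512) for Pou5f1, 0.02 (SE 0.1081, adjusted p = 0.962) for Sox2, 0.02 (SE 0.0839, adjusted p = 0.939) for Klf4 and -0.06 (SE 0.0879, adjusted p = 0.781) for Myc. These SEs leave room for changes that the design could not call.

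Whether siTet1 acted unequally on the factors in the 2 lines was tested with an interaction term in which each line's untransfected and control siRNA libraries served together as its controls. The estimates, pre3 minus pre2-2, were -0.05 (SE 0.2849) for Pou5f1, 0.13 (SE 0.2381) for Sox2, -0.10 (SE 0.254) for Klf4 and -0.11 (SE 0.2544) for Myc, all with an adjusted p of 1.0. By edgeR 0 of 11048 genes were called (0%), with 270 at an unadjusted p under 0.05; DESeq2 and limma on log2 CPM also called 0, with 19 and 275 at that level.

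The families of the 4 factors were expressed far below them. Of 14 other POU genes 3 passed the filter, and the most abundant, Pou2f1, which encodes the widely expressed Oct1, stood at 24.0 to 34.6 TPM. None of the 3 was called in any comparison or had an unadjusted p under 0.05. Of 18 other Sox genes 6 passed, led by Sox13 at 19.3 to 47.7 TPM.

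Sox1 and Sox15 passed only through pre3, being under 10 counts in each pre2-2 library, and no count is drawn from them. Of the other 4 Sox genes tested, Sox12 and Sox13 were higher in pre3 and Sox4 lower, where 14.4% of all tested genes were higher and 15.8% lower. Sox13 was higher by 1.02 on the log2 scale (adjusted p = 6.59e-06) and Sox12 by 0.63 (adjusted p = 0.00287), the latter not without either siTet1 library. Sox15 had 3 to 8 counts in pre2-2 and 15 to 22 in pre3. Sox1, a neural gene, had 0 to 1 and 10 to 15 counts and stood at 0 to 0.263 TPM in pre2-2 and 2.64 to 3.98 TPM in pre3. Sox4 was lower in pre3 (-0.65, adjusted p = 0.0291) and higher by siTet1 than in untransfected cells (1.09, adjusted p = 0.0175). The first of these Sox4 calls ended without either control siRNA library (-0.63 without that of pre2-2, -0.61 without that of pre3) or either siTet1 library (-0.41 without either). The other ended without the untransfected (0.61) or the siTet1 (0.70) library of pre2-2.

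Of 16 other Klf genes 11 passed the filter, led by Klf3, a repressor, at 91.8 to 139 TPM. Between the lines 3 were higher in pre3 and 3 lower (all genes 14.4% and 15.8%), with a median of 0.15. These include Klf6 (0.27) and Klf3 (-0.33). The Klf6 call ended without any one library (0.20 to 0.34). The Klf3 call ended without any one of the control siRNA or siTet1 libraries (-0.37 to -0.25). Klf5, which shares binding sites with Klf4 in embryonic stem cells, was higher by 0.63 (adjusted p = 0.00771), and Klf11 by 0.83 (adjusted p = 0.00018). Klf2, another relative of Klf4 in those cells, was lower by the same measure (-0.66, adjusted p = 0.0245), as was Klf8 (-1.07, adjusted p = 0.000259). The Klf5 call ended without either control siRNA library (0.44 without that of pre2-2, 0.47 without that of pre3) and the Klf2 call without any one of the control siRNA or siTet1 libraries. By siTet1 against untransfected cells Klf5 (0.75, adjusted p = 0.0302) and Klf9 (0.74, adjusted p = 0.0281) were higher. The former call ended without the siTet1 library of pre2-2 (0.70) or the untransfected (0.50) or siTet1 (0.81) library of pre3, and the latter without the untransfected (0.67) or siTet1 (0.59) library of pre2-2.

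Of 13 other genes of the Myc and Max network 11 passed. Max, the obligate partner of Myc, stood at 83.9 to 102 TPM and was called in no comparison, while Myc itself stood at 756.1 to 1479 TPM. Mycn, a paralogue of Myc, was 1.5 to 12.5 TPM and lower in pre3 (-1.60, adjusted p = 0.00233), opposite to Myc, and was not called without the untransfected library of pre2-2 (-1.05). Mxi1, whose product competes with Myc for Max, was higher in pre3 (0.82, adjusted p = 4.79e-05), and so was Mlxip (0.54, adjusted p = 0.00364). These 3 of 11 called between the lines stand beside 30.2% of all genes tested, and the list's median was -0.01.

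The listed targets of Pou5f1 and Sox2 were expressed very unevenly. Of 28 genes 18 passed the filter. Several that define the pluripotent state were at or near 0: Dppa3 was at 0 in all libraries, Esrrb at 0 to 0.709 TPM, Lin28a at 0 to 0.611 TPM, Nanog at 0 to 5.6 TPM and Zfp42 at 0.591 to 6.53 TPM. Others were abundant, with Spp1, which encodes osteopontin, at 624 to 3840 TPM and Tdgf1, a Nodal co-receptor, at 503 to 974 TPM. So Pou5f1 at 8677 to 9358 TPM in pre3 stood beside a Nanog of 0.247 to 4.55 TPM in the same libraries.

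Between the lines 5 of the 18 targets were higher in pre3 and 6 lower, beside 14.4% and 15.8% of all genes tested, with a median of 0.13 beside 0.0025. Gdf3, a TGF-beta family ligand, had 17.0, 9.83 and 14.5 TPM in pre2-2 and 76.4, 71.9 and 86.1 TPM in pre3, a difference of 2.56 (adjusted p = 1.58e-11). Dppa5a, an RNA-binding protein of pluripotent cells, was higher by 1.77 (adjusted p = 8.02e-09). Tdgf1 (0.44, adjusted p = 0.000552), Fbxo15 (0.50, adjusted p = 0.00344) and Tcfcp2l1 (0.71, adjusted p = 0.0179) were higher too.

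Fgf4, a classic joint target of Pou5f1 and Sox2, was lower in pre3 although Pou5f1 was higher there. It had 85.4, 89.9 and 87.8 TPM in pre2-2 and 42.8, 45.0 and 41.2 TPM in pre3 (difference -0.95, adjusted p = 7.37e-07). Spp1 (-1.12, adjusted p = 3.17e-11), Sall4 (-0.89, adjusted p = 6.87e-05), Nr5a2 (-0.87, adjusted p = 0.00212), Jarid2 (-0.63, adjusted p = 0.000146) and Utf1 (-1.33, adjusted p = 0.00924, 5 to 32 counts) were also lower. Of the 11 calls those of Utf1, Fbxo15 and Tcfcp2l1 ended when some single libraries were left out, Utf1 without any one of the control siRNA or siTet1 libraries, Fbxo15 without either control siRNA library, and Tcfcp2l1 without any one of the untransfected or siTet1 libraries. With DESeq2 3 of the targets were higher and 4 lower.

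By siTet1 against control siRNA 3 of the 18 targets rose and 0 fell, beside 1.15% of all genes called higher. Dppa5a had 38.6 TPM by control siRNA and 124 TPM by siTet1 in pre2-2, and 127 and 389 TPM in pre3, a difference of 1.63 (adjusted p = 1.92e-05). Spp1 had 1300 and 3840 TPM in pre2-2 and 643 and 1550 TPM in pre3, a difference of 1.42 (adjusted p = 8.79e-10). Tdgf1 had 503 and 911 TPM in pre2-2 and 648 and 974 TPM in pre3, a difference of 0.72 (adjusted p = 0.000542), and was not called without the siTet1 library of pre2-2 (0.52). These 3 rose in both lines, while Pou5f1 and Sox2 themselves were not called. Markers of other cell types were looked at in this comparison too. Of 8 epithelial markers tested, Cdh1 (1.04, adjusted p = 0.000133) and Krt19 (0.72, adjusted p = 0.0206) were higher and 0 lower, with a list median of 0.39. Of 15 fibroblast markers Col3a1 was higher (0.54, adjusted p = 0.044). The fibroblast list as a whole had a median of 0.0079, with 8 differences above 0 and 7 below. Cdh1, which encodes E-cadherin, had 61.2 TPM by control siRNA and 113 TPM by siTet1 in pre2-2, and 24.1 and 57.8 TPM in pre3, and its call held without each library in turn. Those of Krt19 and Col3a1 each ended without 3 of the 6 libraries left out in turn, Krt19 at 0.37 without the siTet1 library of pre2-2 and Col3a1 at 0.28 without the control siRNA library of pre3. The part of such cells in the targets' rise was not tested.

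The median of the list was 0.20 in that comparison, beside 0.0039 over all genes. Against untransfected cells 4 targets were higher by siTet1 (Dppa2, Dppa5a, Tdgf1 and Spp1), beside 4.92% of all genes, and 1 lower (Nr0b1, -0.93, adjusted p = 0.0237), beside 1.63%, where the comparison shares the siTet1 libraries. The calls of Dppa5a (1.60, adjusted p = 1e-05) and Spp1 (1.27, adjusted p = 4.3e-09) held without each library in turn. That of Dppa2 (1.58, adjusted p = 0.0136, 7 to 35 counts) ended without either siTet1 library or the untransfected library of pre3. That of Tdgf1 (0.39, adjusted p = 0.0319) ended without any pre2-2 library or the control siRNA library of pre3. Nr0b1 had 62.1 TPM in untransfected and 18.3 TPM in siTet1 cells of pre2-2, and 54.9 and 48.2 TPM in pre3, so most of its drop was in pre2-2. Its call ended without the untransfected (-0.57) or the siTet1 (-0.28) library of pre2-2. Control siRNA against untransfected cells called 0 of the 18 by edgeR, DESeq2 and limma, with 2 at an unadjusted p under 0.05 by edgeR.

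**Figure D4:**
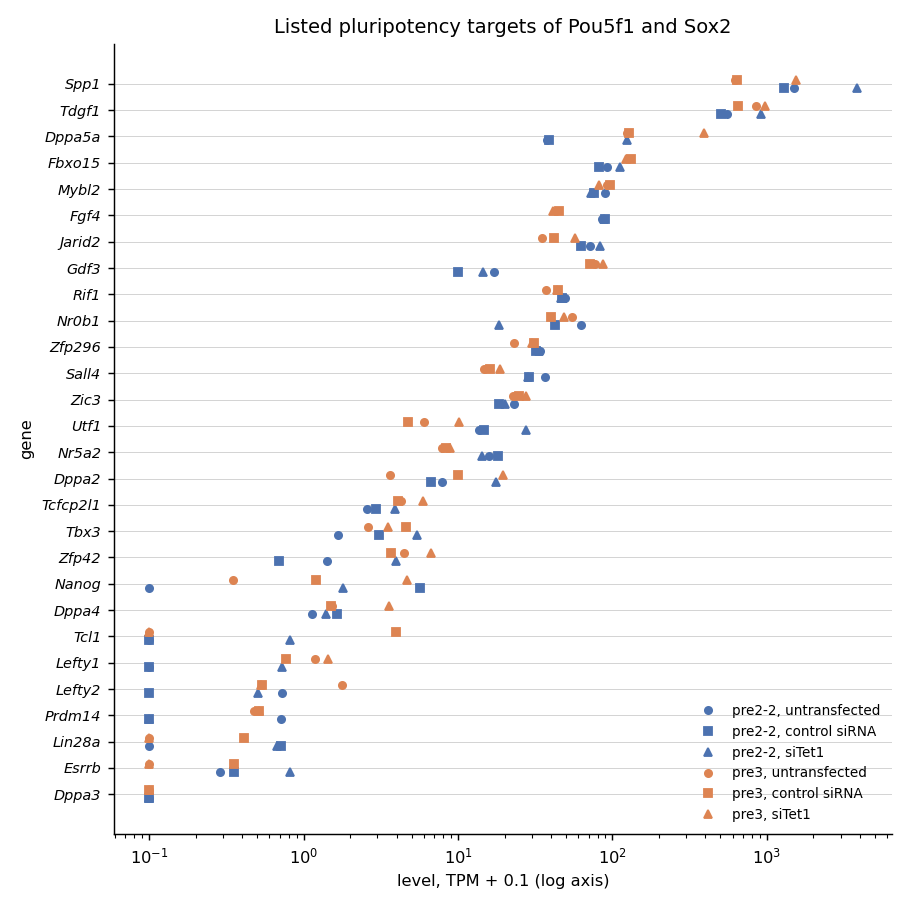
Level (TPM + 0.1, log axis) of the 28 listed targets of Pou5f1 and Sox2 in each of the 6 libraries, coloured by line and marked by treatment, sorted by mean level. Spp1 and Tdgf1 lie highest, Dppa3 lies at 0 (drawn at 0.1) in all libraries, and Fgf4 is lower and Gdf3 higher in pre3.

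The listed Myc targets, genes of ribosome production, growth and metabolism, all passed the filter, 28 of 28. Between the lines 3 were higher in pre3 and 2 lower, beside 14.4% and 15.8% of all genes, with a median of -0.01, while Myc was higher by 0.90. Ldha, which makes lactate, was higher in pre3 (0.77, adjusted p = 2.91e-09), as were Shmt2 (0.39, adjusted p = 0.0028) and Hspd1 (0.29, adjusted p = 0.0154). The cyclins Ccnd1 (-0.82, adjusted p = 2.8e-07) and Ccnd2 (-0.88, adjusted p = 2.8e-06) were lower. The calls of Shmt2 and Hspd1 ended without any one of the control siRNA or siTet1 libraries, and without either untransfected library 11 of the 28 were called higher, where 14.8% (pre2-2 library left out) or 14.6% (pre3 library left out) of all genes were.

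By siTet1 against control siRNA 25 of the 28 differences were below 0, with a median of -0.20 beside 0.0039 over all genes. Only Ccnd1 was called (-0.67, adjusted p = 0.00164), beside 0.434% of all genes called lower. That call ended without the control siRNA (-0.51) or the siTet1 (-0.43) library of pre2-2. Without either untransfected library 11 were called lower, where 2.1% (pre2-2) or 2.08% (pre3) of all genes were. Against untransfected cells 8 were lower by siTet1 and 0 higher, beside 1.63% of all genes called lower: Ncl, Npm1, Nop56, Ldha, Cdk4, Ccnd1, Hspd1 and Shmt2. Ldha had 1870 and 1250 TPM in untransfected and siTet1 cells of pre2-2, and 2990 and 2050 TPM in pre3 (-0.63, adjusted p = 3.04e-05).

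Fibroblast markers moved in this comparison too. Of 15 markers 10 were higher by siTet1 than in untransfected cells and 0 lower, beside 4.92% and 1.63% of all genes, with a median of 0.71. Pdgfra (1.92, adjusted p = 0.00048) and Col3a1 (0.83, adjusted p = 0.000483) held without each library in turn. The other 8 calls (Col1a1, Col1a2, Col6a1, Postn, Twist1, Fn1, Vim and Prrx1) each ended without the untransfected library of pre2-2, the siTet1 library of pre2-2 or either. The part of fibroblast-like cells in the lower Myc targets was not tested.

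The count of 8 Myc targets depended on the libraries and on the tool. It was 2 with DESeq2 and 5 with limma on log2 CPM. The count fell without any one of the pre2-2 libraries or the control siRNA library of pre3. It rose without the untransfected library of pre3. In each of these fits the share of all genes called lower fell or rose with it. The Ldha call held without each library in turn. Npm1, which encodes nucleophosmin, had 5120, 4300 and 3210 TPM in untransfected, control siRNA and siTet1 cells of pre2-2 and 4480, 4750 and 4090 TPM in pre3. In the interaction test all 28 estimates were above 0, with a median of 0.31 beside -0.01 over all genes, and edgeR called 0, with 2 at an unadjusted p under 0.05. Control siRNA against untransfected cells called 1 of the 28 lower, Ldha (-0.37, adjusted p = 0.0152), beside 0.0996% of all genes called lower. That call ended without the control siRNA library of pre2-2 (-0.38) or of pre3 (-0.36). Without the untransfected library of pre3 more of the 28 were called lower, as were more of all genes.

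**Figure D5:**
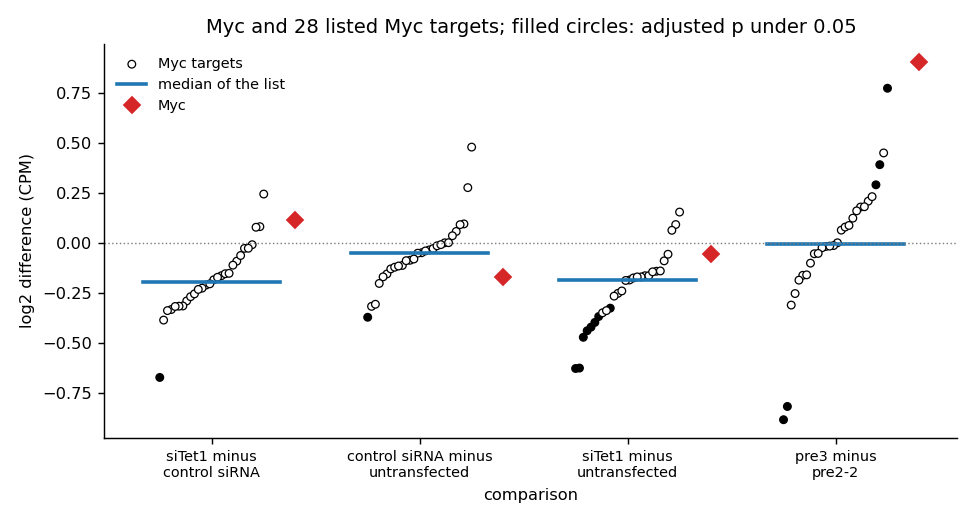
Log2 differences in CPM of the 28 listed Myc targets (circles, filled where the adjusted p is under 0.05) in 4 comparisons, with the list's median as a bar and Myc itself as a diamond. For pre3 against pre2-2 Myc lies at 0.90 and the median at -0.01, and for siTet1 against untransfected cells 8 circles are filled, all below 0.

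Genes that act with or on the 4 factors were counted next. Of 19 cofactors and turnover enzymes, all tested, none was called in a siRNA comparison by edgeR, where 3 had an unadjusted p under 0.05 for siTet1 against untransfected cells. Between the lines Wdr5 (0.44, adjusted p = 0.00113), a histone methylation subunit that binds Pou5f1, and Skp2 (0.41, adjusted p = 0.0123), which targets Myc for degradation, were higher in pre3, and Nacc1 (-0.34, adjusted p = 0.0178) was lower. These 3 of 19 stand beside 30.2% of all genes. Hdac1 was the most abundant, at 244 to 275 TPM. The Skp2 call ended without any one of the control siRNA or siTet1 libraries, and the Nacc1 call without either siTet1 library.

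Of 15 regulators of the 4 genes 11 were tested. Stat3, which carries the LIF signal to Klf4 and Myc, stood at 93.4 to 107 TPM and was called in no comparison. Socs3, a feedback inhibitor of that signal, was higher by siTet1 than by control siRNA (0.61, adjusted p = 0.021) and lower in pre3 (-0.94, adjusted p = 5.15e-07), the first call ending without any one of the control siRNA or siTet1 libraries. E2f1 was higher in pre3 (0.49, adjusted p = 0.0186) and Zic2 lower (-0.46, adjusted p = 0.00666). These 3 of 11 called between the lines stand beside 30.2% of all genes. The E2f1 call ended without any one of the control siRNA or siTet1 libraries (0.37 to 0.47).

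Genes of retroviral silencing are given because they act on introduced factor copies carried by such vectors. Of 19 such genes 18 were tested, and Trim28, the corepressor that many zinc finger proteins recruit to retroviral DNA, stood at 364 to 446 TPM and was called in no comparison. Between the lines Dnmt1 (0.33, adjusted p = 0.00492) and Ehmt2 (0.30, adjusted p = 0.019) were higher in pre3, and Dnmt3b (-0.72, adjusted p = 0.00171), Daxx (-0.43, adjusted p = 0.0305) and Atrx (-0.30, adjusted p = 0.0153) were lower, 5 of 18 beside 30.2% of all genes. The calls of Dnmt1, Ehmt2, Daxx and Atrx each ended without any one of the control siRNA or siTet1 libraries. Uhrf1 was lower by siTet1 than in untransfected cells (-0.37, adjusted p = 0.0413), a call that held only without the untransfected library of pre3 among the 6 left out in turn.

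What part of the factor levels came from introduced copies was not tested. A copy with the coding part alone would be shorter than the length that TPM divides by. The order, ratios and shares of the 4 genes in TPM could then differ. The files list 1 transcript each for Pou5f1, Sox2 and Klf4 and 4 for Myc, with 1 value per gene. In the GENCODE annotation the coding part is 1059 of 1362 bases for Pou5f1 (77.8%), 960 of 2057 for Sox2 (46.7%), 1452 of 3029 for Klf4 (47.9%) and 1365 of 2338 for the longer Myc transcript (58.4%), so for each gene some of its length lies outside the coding part. Pou5f1 also shares sequence with other genes: 15.9% of its 50-base words occur in another transcript, most of them in Gm19553 (15.0%), which is not listed in the files, so reads of that gene could be counted as Pou5f1. For Klf4 this share was 0.3%, and for Sox2 and Myc it was 0.

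Markers of other cell types were checked beside the factors. Listed markers of naive pluripotent cells summed to 163 to 181 TPM in pre2-2 and 203 to 208 TPM in pre3, and of 10 such markers 5 were tested, with Fbxo15 at 81.2 to 131 TPM and Nr0b1 at 18.3 to 62.1 TPM among them. Between the lines 2 of these 5 were higher in pre3 (Tcfcp2l1 and Fbxo15), beside 14.4% of all genes, and 1 lower (Klf2), beside 15.8%. Each of these calls ended when some single libraries were left out, as given above. By these levels the libraries carried little RNA of the defining naive genes Nanog, Esrrb and Dppa3. Neural markers, relevant to Sox2, summed to 223 to 276 TPM in pre2-2 and 122 to 139 TPM in pre3, a gap that lay mostly in Tubb3, at 103 to 148 and 14.1 to 22.4 TPM. Nes was lower in pre3 as well, Pax6 (1.01, adjusted p = 0.00231) and Zic1 (1.09, adjusted p = 0.000134) were higher, and Olig2 was at 0. The Pax6 call ended without the siTet1 library of pre3 (0.73). Epithelial markers, relevant to Klf4, summed to 379 to 530 and 254 to 382 TPM. Of 8 tested, 5 were lower in pre3, beside 15.8% of all genes, and Krt19 was higher (0.44), beside 14.4%. The Krt19 call ended without any one of the untransfected or control siRNA libraries. That of Esrp1 (-0.55) ended without either control siRNA library. Cldn3 passed the filter only through pre3, with 2 to 4 counts in pre2-2 and 12 to 26 in pre3, and no count is drawn from it. Primed epiblast markers summed to 95.2 to 118 TPM in pre2-2 and 68.5 to 106 TPM in pre3, primitive endoderm markers to 16.4 to 30.8 and 8.35 to 19.4 TPM, germline markers to 5.93 to 19.4 and 7.32 to 15 TPM and trophectoderm markers to 6.01 to 7.46 and 1.44 to 4.88 TPM. Among these Fgf5, T, Foxa2, Afp, Dazl, Mael, Elf5 and Hand1 were at 0. Their part in the factor levels was not tested.

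The genes most like each factor over the 6 libraries were found by Pearson's r of log2 CPM among 10123 genes, as a description. For Pou5f1 they were Rnpepl1 (r = 0.998), the homeobox gene Barx1 (0.997) and B930041F14Rik (0.997). For Myc they were again Rnpepl1 (0.999), Arl2bp (0.998) and Sema4d (0.997). The libraries of these 2 factors fall into separate groups by line, so r over the 6 mostly measures that gap. Barx1 was very low in pre2-2, at 0.731 to 1.16 TPM. In pre3 it stood at 36.6, 32.4 and 25.9 TPM in untransfected, control siRNA and siTet1 cells. Within pre3 it was lowest in the siTet1 library, whereas Pou5f1 was lowest in the control siRNA library. Its likeness to Pou5f1 thus lay in the gap between the lines.

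For Sox2 the most alike were Slc7a11, a cystine transporter (r = 0.991), Ppil2 (0.988) and Atm, the DNA damage kinase (0.983). For Klf4 they were Acss2, an acetyl-CoA synthetase (0.992), Tubg2 (0.990) and Lage3 (0.989). With 6 libraries and so many genes, high values of r arise readily.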

How the data were processed

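RNA was extracted with Trizol and made into TruSeq libraries, per the labels' protocols. The authors deposited, per library, 1 expected count and 1 fraction per gene, made with RSEM 1.1.21 on mm9 per the submitters' processing notes. These deposited expected counts are reads apportioned to genes by RSEM, without normalization, and 18.7 to 21.4% of values per library were not whole (tolerance 0.005). The fraction, as deposited, is a gene's estimated share of transcripts and was scaled here to TPM. Read length and filters are not given in the sources used here. A deposited series table repeating these fractions was not used, and 1 of its columns names no sample here.

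Expected counts were rounded and tested in edgeR 4.0.16 (R 4.3.3) with TMM factors of 0.982 to 1.01, filterByExpr by treatment at a minimum count of 10 and a two-sided quasi-likelihood test. The model held line and treatment over all 6 libraries, with 2 residual and 23.2 prior degrees of freedom. A treatment comparison of 2 libraries with 2, taken without the pairing, could reach at best an exact permutation p of 0.333. The lines supply the pairing, since same-numbered libraries are the same cell line. Alternatives were RLE factors, library totals, DESeq2 1.42.0, limma 3.58.1 on log2 CPM (prior count 2), log2(TPM + 1) and log2(TPM + 0.1), no filter, no replicate block, only the 4 libraries compared, pooled controls and each library left out. The fit of siTet1 against control siRNA was also run on simulated counts with 1 common spread for all genes. That run did not cover the other comparisons or the unequal spread of real genes. Depths of 1868640 to 2582803 counts gave the factors counting errors of 0.88 to 3.74% (exact 95% Poisson intervals for levels, exact binomial ones for ratios).

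Genes named were the 4 factors, list members called in a comparison or among the 3 highest by TPM, other members named as tested or untested examples after their values were seen, and the 3 genes most alike per factor at an average log2 CPM of at least 3. The members and lists were chosen with earlier results of these data known. Counts of called list members under the alternatives were added after seeing the data. Files and reference differ in build, so only the RefSeq windows carry coordinates.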

Additional observations from a re-analysis of the deposited data

Results flagged for a closer look

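For 2 of the factors the lines pointed in opposite directions between siTet1 and untransfected cells. Sox2 was at 464.6 CPM by siTet1 and 495.7 CPM in untransfected cells of pre2-2, a log2 difference of -0.0936 with a 95% counting interval of -0.21 to 0.03. In pre3 it was at 434.6 and 396.5 CPM, a difference of 0.1323 with an interval of -0.01 to 0.28. For Klf4 the signs were the other way round, with 0.0611 in pre2-2 (-0.0032 to 0.13) and -0.0229 in pre3 (-0.09 to 0.04). All 4 intervals contained 0, and each line had 1 library per treatment. On the TPM scale the Klf4 values were 0.12 and 0.06, both above 0. This difference between the lines was not itself tested. The related interaction, with control siRNA and untransfected cells pooled as controls, had an adjusted p of 1.0 for both genes by edgeR.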

How the results depend on the processing

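Of the 4 factors, Pou5f1 and Myc kept their calls between the lines in all 13 alternatives, Sox2 was called in none of them, and no factor was called in a siRNA or interaction comparison under any alternative run. The Klf4 difference between the lines was no longer called with DESeq2 (0.2169) or with limma on log2(TPM + 1) (0.144) or log2(TPM + 0.1) (0.1441), and it was 0.1949 to 0.256 with 1 library left out, called in 2 of those 6. Small differences changed sign. Pou5f1 by siTet1 against control siRNA was -0.0007 with pooled controls. Against untransfected cells Sox2 was -0.005 and Klf4 -0.0008 with no filter, Myc was 0.0131 with limma on either TPM scale, and with 1 library left out Sox2 ran from -0.1032 to 0.1286 and Klf4 from -0.0291 to 0.062. The Pou5f1 interaction ran from -0.1523 to 0.0628. The mean log2 ratio of Klf4 to Sox2 was 1.70 in TPM and 2.0128 in expected counts, which do not divide by length.

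Counts over all genes moved more. Between siTet1 and control siRNA (175 genes) they were 24 with DESeq2, 104 with limma on log2 CPM, 33 and 21 on the TPM scales, 292 with no filter, 114 with pooled controls and 34 to 632 with 1 library left out. Between control siRNA and untransfected cells (164) they were 32, 83, 32 and 27 with the same tools in order, 259 with no filter and 27 to 733. Between siTet1 and untransfected cells (724) they were 87 with DESeq2, 195 and 133 on the TPM scales and 172 to 1900. Between the lines (3335) they were 1429 with DESeq2 and 2152 to 3631. The interaction (0) gave 7 with no filter and 0 to 5, and could not be fitted without either siTet1 library.

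With no replicate block, that is without the line in the model, each siRNA comparison called 0 genes, listed targets included (178, 84 and 353 at an unadjusted p under 0.05). The replicate block fitted to only the 4 libraries compared called 613 between siTet1 and control siRNA. Neither changed a call of the 4 factors. Causes of these changes were not tested.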
